A study of Mus musculus with 91 samples.

Results

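The 9 genes described here encode RNA-binding proteins that direct alternative splicing: Esrp1, Esrp2, Ptbp1, Ptbp2, Rbfox2, Mbnl1, Mbnl2, Mbnl3 and Celf2. They were taken by name from the 19938 genes that had a transcript cluster of their own on the array, where a transcript cluster is the set of probes that measures a gene. When a gene had several clusters, the cluster with the highest mean over the sorted-cell arrays was used, which applied to Ptbp1 and Celf2. All 9 genes passed the filter on dim clusters (2 or more of a group's 3 arrays had to exceed a log2 level of 6, in whichever group).

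The levels come from fetal mouse gonads that carried a fluorescent reporter, were dissociated with trypsin and were sorted by fluorescence, and each group holds 3 arrays. Gonads of both sexes (XY and XX), taken on embryonic days E11.5 to E13.5 at 1-day steps, gave germ cells (Oct4-EGFP), supporting cells (Sry-EGFP, replaced by Sox9-ECFP in XY gonads at E12.5 and E13.5), interstitial/stromal cells, endothelial cells (Flk1-mCherry) and αSma-EYFP cells. Embryos came from CD-1 mice for Flk1-mCherry, from crosses of CD-1 with C57BL/6J for Oct4-EGFP, Sry-EGFP and Sox9-ECFP, from crosses of CD-1 with a mixed background for interstitial/stromal cells, and from mice labelled FVB for αSma-EYFP (kept as a mixed line of FVB and CD-1 by the methods), so lineage and strain partly coincide. From E12.5 on, the comparison of XY with XX supporting cells is also a comparison of Sox9-ECFP with Sry-EGFP cells, and the sex and the reporter cannot be told apart there. Each change of XY supporting cells from E11.5 to a later stage also spans the change of reporter. The same holds for the tests of sex by stage in supporting cells, so stage and reporter cannot be told apart in them. Each array held cells pooled from the gonads of one or more litters. Oct4-EGFP cells were sorted with the mesonephros left on, and part of the mesonephros stayed with the Flk1-mCherry samples at E11.5. By the study's own account XY Flk1-mCherry cells at E12.5 and E13.5 included Leydig cells, and αSma-EYFP labelled a mixed population at E11.5, for which reason those cells are described apart. Within a sex and stage, the means of germ, supporting, interstitial and endothelial markers were each highest in the cells so labelled. For instance, 12 germ cell markers (such as Dazl and Ddx4) had a mean level between 9.34 and 9.81 in the 6 germ cell groups, against 5.85 to 6.99 in supporting and endothelial groups. Flk1-mCherry groups also held the highest means of 7 macrophage markers (7.67 to 8.52, against at most 6.76 in other groups) and of red blood cell markers.

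Splicing regulators of this kind bind short motifs in pre-mRNA and push exons in or out of the mature transcript. ESRP1 and ESRP2 are known for the exon choices of epithelial cells, PTBP1 is widely expressed and represses exons that its paralog PTBP2 leaves in during neuronal differentiation, RBFOX2 binds a motif beside exons in many tissues, and muscleblind-like (MBNL) and CELF proteins are known as antagonists in the fetal-to-adult switch of exons in heart and skeletal muscle. The arrays report how much transcript of each gene was present and not which exons it held. In sorted cells, a lower level can mean less RNA per cell or fewer cells that express the gene, and these cannot be told apart.

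Upstream sequence was at hand for 6 of the 9 genes in RefSeq's windows of 250 bases before to 50 after an annotated start (build GRCm38.p6), and 3 are shown for differences between the sexes or stages described below: Mbnl3, the gene with the widest gap between XY and XX cells, and Ptbp1 and Ptbp2, paralogs that moved in opposite directions in germ cells. The Ptbp2 window lies inside the span given for the gene, which runs to base 119784647, and so not at its outermost start. Each is written 5′ to 3′ on the strand of its gene, with matches to 4 motifs in capitals: AACAAT (the core bound by SOX proteins), CACGTG (an E-box), CCAAT and GGGCGG (the GC box), searched on both strands.
Mbnl3 (chrX:51205941-51206240, minus strand): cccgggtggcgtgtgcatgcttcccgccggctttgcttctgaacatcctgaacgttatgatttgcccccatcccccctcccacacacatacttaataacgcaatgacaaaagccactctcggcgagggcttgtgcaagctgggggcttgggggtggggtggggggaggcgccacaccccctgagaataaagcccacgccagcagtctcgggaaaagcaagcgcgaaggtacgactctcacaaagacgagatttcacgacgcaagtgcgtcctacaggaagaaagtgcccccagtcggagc
Ptbp1 (chr10:79854182-79854481, plus strand): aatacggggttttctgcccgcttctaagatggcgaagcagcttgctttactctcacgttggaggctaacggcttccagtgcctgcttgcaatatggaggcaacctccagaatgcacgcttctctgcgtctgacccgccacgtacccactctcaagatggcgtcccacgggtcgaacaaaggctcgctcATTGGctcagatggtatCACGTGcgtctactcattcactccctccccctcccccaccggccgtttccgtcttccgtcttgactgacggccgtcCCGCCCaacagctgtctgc
Ptbp2 (chr3:119783339-119783638, minus strand): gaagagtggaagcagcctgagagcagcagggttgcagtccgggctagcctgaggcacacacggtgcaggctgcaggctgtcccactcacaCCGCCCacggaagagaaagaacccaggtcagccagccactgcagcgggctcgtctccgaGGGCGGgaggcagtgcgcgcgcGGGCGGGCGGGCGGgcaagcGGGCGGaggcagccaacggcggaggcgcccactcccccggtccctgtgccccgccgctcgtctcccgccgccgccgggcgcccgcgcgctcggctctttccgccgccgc
The Mbnl3 window held none of these letter strings. The Ptbp1 window held 1 E-box, 1 CCAAT match and 1 GC box, the last pair read on the other strand, and the Ptbp2 window held 6 matches to GGGCGG, of which neighbours overlap in the central run. Of the 32851 windows in the table, 10.7% held AACAAT, 7.15% CACGTG, 37.4% CCAAT and 35.7% GGGCGG.

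Esrp1 was a germ cell transcript at every stage in both sexes. In XY germ cells the 3 arrays read 10.43, 10.54 and 10.55 at E11.5, 10.44, 10.52 and 10.52 at E12.5, and 10.39, 10.49 and 10.61 at E13.5, on the log2 scale of the deposited values. XX germ cells gave 10.54, 10.49 and 10.60 at E11.5, 10.20, 9.93 and 10.23 at E12.5, and 9.24, 9.38 and 9.05 at E13.5. The XY arrays thus stayed within a narrow band, whereas the XX arrays stepped down after E11.5 and lay below all XY arrays at both later stages.

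Outside the germ cells, none of the 24 somatic group means of Esrp1 reached 6. The 72 somatic arrays spanned 5.43 to 6.33 with a median of 5.63, and the germ cell group was the highest of the 4 lineages, with the test against each of the others passed, in 6 of 6 combinations of sex and stage. Because the somatic levels lay under the limit of 6, the excess of germ cells is given as a bound against that limit. It was at least 22.7-fold (XY) and at least 23.3-fold (XX) at E11.5, and at least 9.34-fold in XX germ cells at E13.5. The test of germ cells against the mean of the other lineages was passed in all 6 combinations, with adjusted p between 1.02e-43 (XX, E11.5) and 9.53e-38 (XX, E13.5) in limma.

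No sex difference of Esrp1 was detected at E11.5, where XY minus XX was -0.04 in germ cells (95% interval -0.26 to 0.18). At E12.5 the means were 10.49 ± 0.04 in XY germ cells and 10.12 ± 0.17 in XX germ cells (SD, n = 3 each), a difference of 0.37 with an adjusted p of 0.0364 in limma. That call was lost on leaving out any of 4 arrays, with a highest adjusted p of 0.337 without the second XX array. At E13.5 XY germ cells averaged 10.50 ± 0.11 and XX germ cells 9.22 ± 0.16, a 2.42-fold excess of the XY cells (adjusted p = 9.91e-14 in limma).

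In XX germ cells the level of Esrp1 was lower at E13.5 than at E11.5 (log2 difference -1.32 ± 0.11, adjusted p = 2.00e-14), while in XY germ cells the same difference was -0.01 (95% interval -0.23 to 0.21). The test of the difference between these changes gave 1.31 ± 0.16 (adjusted p = 7.73e-09). The study itself picked Esrp1 from these arrays as an example of a germ cell gene that differs between the sexes, so this pattern is not independent evidence. Ptbp1, Mbnl2, Mbnl3 and Celf2 also stand in gene lists that the study drew from these arrays.

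**Figure D1:**
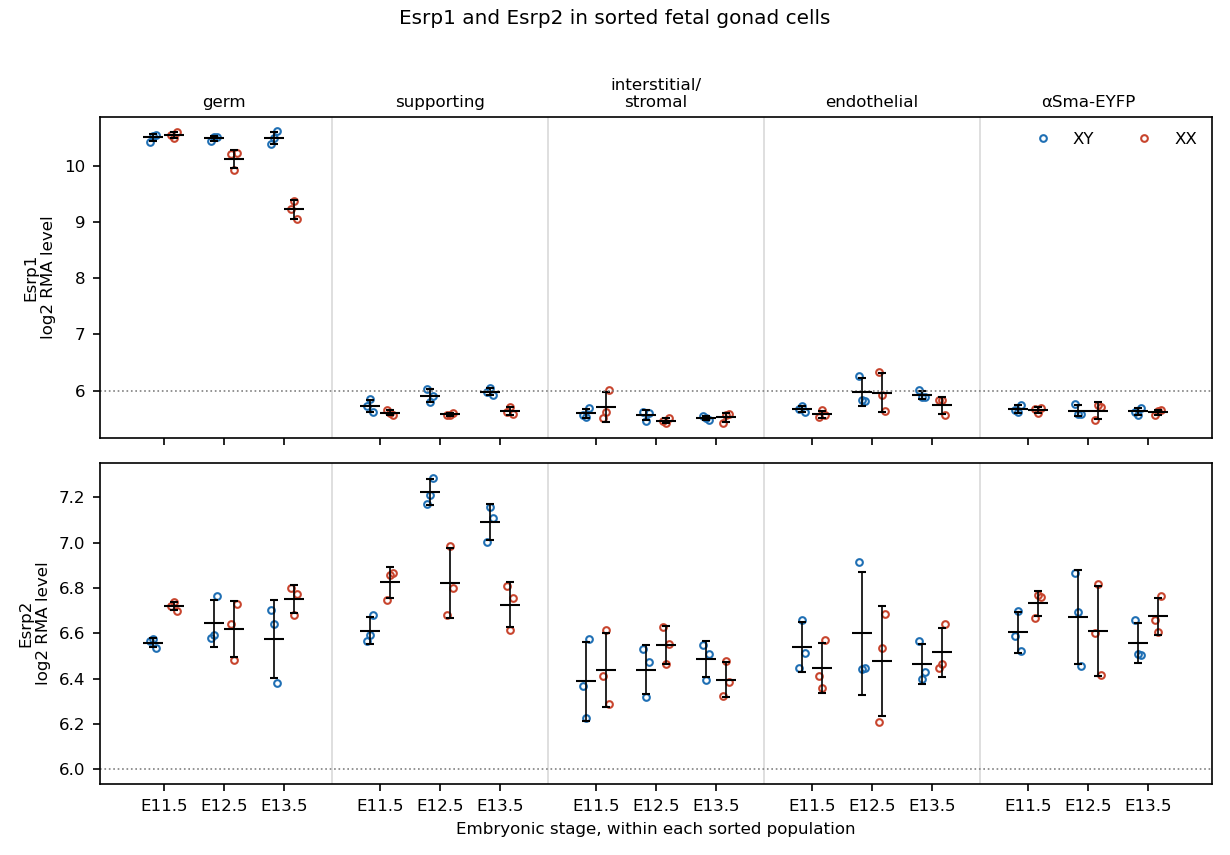
Log2 level of Esrp1 (top) and Esrp2 (bottom) by stage in the 5 sorted populations, with XY in blue and XX in red, a circle for each array and black bars for the mean and SD of 3 arrays, the dotted line marking a level of 6. Esrp1 stands between 9.05 and 10.61 in the germ cell arrays and at or below 6.33 elsewhere, and Esrp2 is highest in XY supporting cells at E12.5.

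Small differences of Esrp1 also passed the test in supporting cells, at the dim end of the scale. XY arrays read 6.03, 5.80 and 5.90 at E12.5, against 5.57, 5.56 and 5.60 in XX arrays, and 5.97, 6.05 and 5.92 at E13.5, against 5.61, 5.71 and 5.58 in XX arrays (adjusted p of 0.0153 and 0.0128 in limma). Both group means lay under 6 at both stages, so no fold is given, and the calls were lost without 1 and 2 of the arrays. In XX endothelial cells Esrp1 read 5.53, 5.65 and 5.57 at E11.5 and 6.33, 5.92 and 5.64 at E12.5, overlapping values whose difference of 0.38 had an adjusted p of 0.03 (4.24% of all tested clusters called). It was lost after a second quantile normalization (adjusted p = 0.074). The mean of the 12 germ cell markers in these arrays ranged from 6.42 to 7.11 at E12.5, against 6.07 to 6.14 in XX endothelial cells at E11.5. The part of germ cell RNA in that result was not tested.

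Esrp2, the paralog that shares ESRP1's role in epithelial splicing, showed a different distribution. Its group means spanned only 6.39 to 7.22, and the highest belonged to XY supporting cells, with arrays of 7.17, 7.21 and 7.29 at E12.5 and a mean of 7.09 ± 0.08 at E13.5. XX supporting cells gave 6.68, 6.99 and 6.80 at E12.5 and 6.81, 6.61 and 6.76 at E13.5. The sexes did not overlap at either stage, and the differences were 0.40 ± 0.10 and 0.36 ± 0.10 (adjusted p of 0.00208 and 0.00552). At E11.5, before the change of reporter, XY supporting cells had averaged 6.61 ± 0.06 and XX supporting cells 6.82 ± 0.07, and the change of the sex difference over the stages was 0.58 ± 0.15 (adjusted p = 0.00445). In germ cells, where Esrp1 was abundant, Esrp2 lay between 6.56 and 6.75 and exceeded the mean of the other lineages by the test only in XX cells at E13.5 (0.21, adjusted p = 0.0389), where the difference from supporting cells was 0.03 (adjusted p = 0.869).

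Genes of epithelia were examined beside Esrp1 because ESRP proteins are tied to that program. Of 25 such genes, 24 were measured and 23 tested. In germ cells against the other lineages, 8 to 12 were higher and 2 to 4 lower, with medians between 0.03 and 0.19 beside medians of -0.03 to 0.02 over all tested clusters, of which 50.8% to 53.3% were called in these comparisons. The adhesion genes Cdh1 (E-cadherin) and Epcam were the clearest: in E11.5 XY germ cells Cdh1 was 5.22-fold and Epcam 8.90-fold higher than in the other lineages, whereas the keratin gene Krt8 was 1.76-fold lower. Cdh1 also differed between the sexes, with means of 9.14 ± 0.19 in XY and 7.51 ± 0.15 in XX germ cells at E13.5, a difference of 1.63 (adjusted p = 8.66e-18). At E13.5, 5 of the 23 tested genes were higher and 3 lower in XY than in XX germ cells, where 21.1% of all tested clusters were called. Cldn6, which encodes a claudin, had an XY minus XX difference of -1.26 (adjusted p = 4.09e-07).

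Of 9 genes whose exons are known to depend on ESRP proteins, Fgfr2, Slk and Magi1 differed between the sexes in germ cells at E13.5, a count of 3 where 21.1% of all tested clusters were called. Fgfr2, a receptor for fibroblast growth factors, was higher in XY than in XX germ cells by 1.21 (adjusted p = 2.09e-07), Magi1 was higher by 0.44 (adjusted p = 0.0084) and Slk was lower (-0.65, adjusted p = 7.27e-04). These are levels of the genes and carry no information on the exons.

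The pattern of Esrp1 over the 24 group means of the 4 lineages was shared by many genes that mark germ cells. Among 8627 genes whose group means spanned at least 1 log2 unit, 668 had a Pearson correlation with Esrp1 above 0.9, and the closest were Gm6083 (0.997), Tdrd12 (0.996) and Liph (0.995). These correlations are descriptions over groups that share the same germ cell arrays. Tdrd12 is known for its role in the piRNA pathway of germ cells.

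Ptbp1 and Ptbp2 moved apart in germ cells as gonads developed. Ptbp1 read 9.97, 10.25 and 10.17 in XY germ cells at E11.5, 10.03, 9.92 and 9.87 at E12.5, and 9.93, 9.59 and 9.56 at E13.5. In XX germ cells it read 9.97, 9.99 and 9.83 at E11.5, 9.81, 9.57 and 9.60 at E12.5, and 8.77, 9.02 and 8.78 at E13.5. Both sexes declined, and the XX arrays at E13.5 lay below every other array of the gene, somatic arrays included, which spanned 9.41 to 10.48.

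The decline between E11.5 and E13.5 was -0.44 ± 0.12 in XY germ cells (adjusted p = 0.00682) and -1.08 ± 0.12 in XX germ cells (2.11-fold, adjusted p = 2.97e-10). The XY change lost its call without either of 2 arrays (highest adjusted p 0.0668). At E13.5 Ptbp1 averaged 9.70 ± 0.21 in XY and 8.85 ± 0.14 in XX germ cells, a 1.79-fold difference (adjusted p = 2.38e-07), and the sexes diverged over the stages by 0.64 ± 0.17 (adjusted p = 0.00899). The divergence was no longer called without the first XY array of E13.5, with an adjusted p of 0.0537. The other cluster annotated to Ptbp1, which read lower over the sorted-cell arrays (8.76 against 10.02 in the mean), also fell in XX germ cells between E11.5 and E13.5, by 1.05 (adjusted p = 3.10e-04), and was higher in XY than in XX germ cells at E13.5 (0.67, adjusted p = 0.0293). It also gave calls that the main Ptbp1 cluster did not, with higher XY levels at E12.5 in supporting cells (0.80, adjusted p = 0.00534, against 0.17 for the main cluster) and in endothelial cells (1.08, adjusted p = 0.00248, against -0.09). The XY decline in germ cells and the divergence of the sexes were not called in this second Ptbp1 cluster (-0.62, adjusted p = 0.057, and 0.43 ± 0.33, adjusted p = 0.554).

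Ptbp2 rose in the same cells. XY germ cells read 9.83, 9.84 and 9.80 at E11.5, 10.14, 10.31 and 10.17 at E12.5, and 10.57, 10.57 and 10.48 at E13.5. XX germ cells read 9.90, 9.95 and 9.52 at E11.5, 10.45, 10.51 and 10.46 at E12.5, and 10.96, 10.65 and 10.80 at E13.5. The 3 stages did not overlap in either sex, and E13.5 stood above E11.5 by 0.72 ± 0.17 in XY cells (1.65-fold, adjusted p = 0.00117) and by 1.01 ± 0.17 in XX cells (2.02-fold, adjusted p = 3.63e-06).

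Unlike for Ptbp1, no sex difference of Ptbp2 passed the test in germ cells. The difference at E13.5 was -0.26 (95% interval -0.60 to 0.08), although the arrays did not overlap, and the change of that difference over the stages was -0.29 (95% interval -0.77 to 0.19). In somatic cells the lowest group mean of the gene was that of E12.5 XY supporting cells, 9.39 ± 0.19, where the XX cells had 9.89 ± 0.34 (difference -0.49, adjusted p = 0.0204). Arrays of the sexes overlapped there, and the call was lost without any of 4 arrays.

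**Figure D2:**
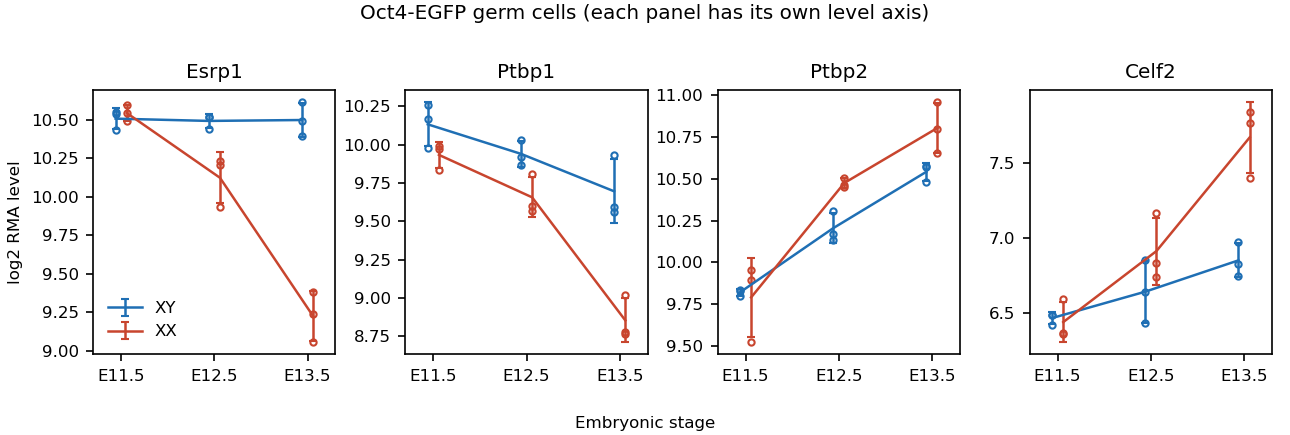
Log2 levels of Esrp1, Ptbp1, Ptbp2 and Celf2 in Oct4-EGFP germ cells against embryonic stage, with circles for arrays and lines through the means with SD bars (n = 3), XY in blue and XX in red. At E13.5 Esrp1 is at 10.50 in XY and 9.22 in XX cells and Ptbp1 at 9.70 in XY and 8.85 in XX cells, Ptbp2 climbs in both sexes, and Celf2 climbs further in XX cells.

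The muscleblind-like genes Mbnl1 and Mbnl2 were the reverse of Esrp1, with their lowest levels in germ cells. Mbnl1 ranged from 7.12 to 8.25 over the 18 germ cell arrays, with a median of 7.81, and from 9.51 to 10.59 over the 72 somatic arrays, with a median of 9.93. Mbnl2 ranged from 6.22 to 7.56 in germ cells, with a median of 6.68, against 9.14 to 10.99 in somatic cells, with a median of 10.07. No germ cell array reached the lowest somatic array for either gene, and germ cells were below each other lineage by the test in 6 of 6 combinations of sex and stage for both. Against the mean of the other lineages, Mbnl1 was 3.23-fold (XX, E12.5) to 6.58-fold (XX, E11.5) lower, and Mbnl2 6.58-fold (XX, E13.5) to 14.4-fold (XY, E12.5) lower.

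Within germ cells both genes were higher at E13.5 than at E11.5, without a steady climb over the 3 stages in every case. Mbnl1 averaged 7.38, 7.72 and 8.03 over the 3 stages in XY cells, and 7.27, 8.16 and 8.05 in XX cells. The change between E11.5 and E13.5 was 0.64 ± 0.15 in XY cells (adjusted p = 8.24e-04) and 0.78 ± 0.15 in XX cells (adjusted p = 3.00e-05). Mbnl2 averaged 6.69, 6.46 and 7.23 in XY cells and 6.38, 6.81 and 7.30 in XX cells, with changes of 0.54 ± 0.18 (adjusted p = 0.0279, lost without any of 3 arrays) and 0.92 ± 0.18 (adjusted p = 5.71e-05). At E13.5 the sexes lay close, with XY minus XX differences of -0.02 for Mbnl1 (95% interval -0.31 to 0.27) and -0.07 for Mbnl2 (95% interval -0.43 to 0.29).

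Markers of somatic cells were read in the same germ cell arrays. The mean of 12 supporting cell markers (such as Sox9, Amh, Wnt4 and Fst) was 6.92 in XY and 6.62 in XX germ cells at E13.5, and 6.69 in XY and 6.61 in XX germ cells at E11.5. For 9 interstitial markers the means were 6.90 in XY and 6.74 in XX germ cells at E13.5, and 6.84 in XY and 6.87 in XX germ cells at E11.5. The supporting markers thus had a higher mean at the later stage in XY germ cells, and their mean moved little in XX germ cells. The Sertoli cell gene Cst9 was at 7.75 in XY and 4.70 in XX germ cells at E13.5. By the study's own account, antibody staining of sorted cells put supporting cells at a very low share of XY germ cells at E13.5. The part of somatic RNA in the germ cell levels of Mbnl1, Mbnl2 and Mbnl3 was not tested.

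Supporting cells were the somatic lineage in which Mbnl2 differed between the sexes. The arrays read 10.61, 10.32 and 10.34 in XY cells and 9.58, 9.80 and 9.96 in XX cells at E12.5, and 10.36, 10.43 and 10.49 in XY cells and 9.89, 9.75 and 9.59 in XX cells at E13.5. The differences were 0.64 ± 0.18 (1.56-fold, adjusted p = 0.00405) and 0.69 ± 0.18 (1.61-fold, adjusted p = 0.00218), with no overlap. They exceeded the mean sex difference of the other lineages by 0.70 at E12.5 and 0.75 at E13.5 (adjusted p of 0.00965 and 0.00491).

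Mbnl3, an X-linked gene, showed the widest sex difference among the 9 genes. In XY supporting cells it read 8.26, 8.95 and 9.07 at E11.5, 6.38, 7.45 and 6.68 at E12.5, and 6.73, 7.19 and 6.82 at E13.5. In XX supporting cells it read 9.90, 9.85 and 9.69 at E11.5, 10.28, 10.61 and 10.52 at E12.5, and 11.07, 10.74 and 10.90 at E13.5. The sexes were separate from E11.5 on and moved apart in opposite directions.

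The XY minus XX difference in supporting cells was -1.05 ± 0.27 at E11.5 (2.07-fold lower, adjusted p = 0.00609), -3.64 ± 0.27 at E12.5 (12.4-fold lower, adjusted p = 2.05e-16) and -3.99 ± 0.27 at E13.5 (15.9-fold lower, adjusted p = 5.84e-18). The E11.5 call was lost without the first XY array (adjusted p = 0.102). Between E11.5 and E13.5 the gene fell by 1.84 in XY supporting cells (adjusted p = 4.46e-07) and rose by 1.09 in XX supporting cells (adjusted p = 0.00347), and the difference between these changes was -2.94 ± 0.39 (adjusted p = 5.51e-08). The XY fall and the difference between the changes span the change of reporter, so stage and reporter cannot be told apart there.

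A sex difference in the same direction was called in interstitial/stromal cells at E12.5 and E13.5, and in germ and endothelial cells at E13.5. At E12.5 Mbnl3 was not called between the sexes in germ or endothelial cells. Interstitial/stromal cells had means of 8.75 ± 0.41 in XY and 8.76 ± 0.21 in XX at E11.5, 8.36 ± 0.42 in XY and 9.65 ± 0.51 in XX at E12.5, and 8.24 ± 0.37 in XY and 9.84 ± 0.35 in XX at E13.5. The later differences were -1.29 (adjusted p = 8.43e-04) and -1.59 (adjusted p = 1.83e-05), and the divergence over the stages was -1.59 (adjusted p = 0.00787), which was lost without the first XY array of E11.5 (adjusted p = 0.0507). Sertoli cell markers had higher means in XY than in XX cells of this lineage at each stage, including E11.5, where the Mbnl3 means lay close. Over 10 such markers the mean level at E11.5 was 7.63 in XY and 6.76 in XX cells of this lineage. It was 9.03 in XY and 6.84 in XX at E12.5, and 8.50 in XY and 6.88 in XX at E13.5, with single XY arrays between 7.87 and 9.10 at E13.5. All 10 markers had group means above 6 in XY cells at each stage, against 6 or 7 of them in XX cells. XY supporting cells, in which such markers are high, had low Mbnl3 levels at E12.5 and E13.5. Antibody staining in the study put supporting cells at a variable share of the sorted XY interstitial cells at E13.5. The part of supporting cell RNA in the interstitial/stromal values was not tested.

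Germ cells gave 6.13, 6.22 and 5.93 in XY cells at E13.5, against 8.10, 7.92 and 8.08 in XX cells, a 3.83-fold difference (adjusted p = 1.60e-07). The XY group mean of 6.10 lay near the limit of 6, so the fold is approximate. At E11.5 both sexes lay near that limit and no difference was detected, at 6.19 ± 0.12 in XY and 6.20 ± 0.54 in XX germ cells, with an interval of the difference from -0.56 to 0.54. Endothelial cells differed at E13.5, with means of 6.93 ± 0.51 in XY and 8.08 ± 0.47 in XX cells (adjusted p = 0.00409, lost without either of 2 arrays). XY supporting cells differed from XY endothelial cells by -0.31 at E12.5 and -0.02 at E13.5 (95% intervals -0.86 to 0.24 and -0.57 to 0.53). They lay above XY germ cells by 0.42 at E12.5 (adjusted p = 0.217) and by 0.82 at E13.5 (adjusted p = 0.0115, where 45.5% of all tested clusters were called).

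Supporting cells stood apart from the other lineages in the size of this difference. The excess over the mean sex difference of the other lineages was -2.85 at E12.5 (adjusted p = 2.11e-10) and -2.43 at E13.5 (adjusted p = 1.63e-08). Of 558 X-linked genes tested, 101 (18.1%) were higher in XX than in XY supporting cells at E12.5 and 109 (19.5%) at E13.5. At each of these stages 86 were higher in XY cells. Over all tested clusters 30.7% and 29.4% were called in either direction. The median X-linked difference was -0.012 at E12.5 and -0.050 at E13.5, against -0.001 and -0.025 for the other genes. Mbnl3 had the third lowest XY minus XX value among the X-linked genes at both stages (rank 3 of 558). In germ cells at E13.5, 178 of the X-linked genes (31.9%) were higher in XX cells and 37 in XY cells, where 21.1% of all tested clusters were called. The median X-linked difference there was -0.17 against 0.02 for the other genes, and Mbnl3 ranked 10.

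**Figure D3:**
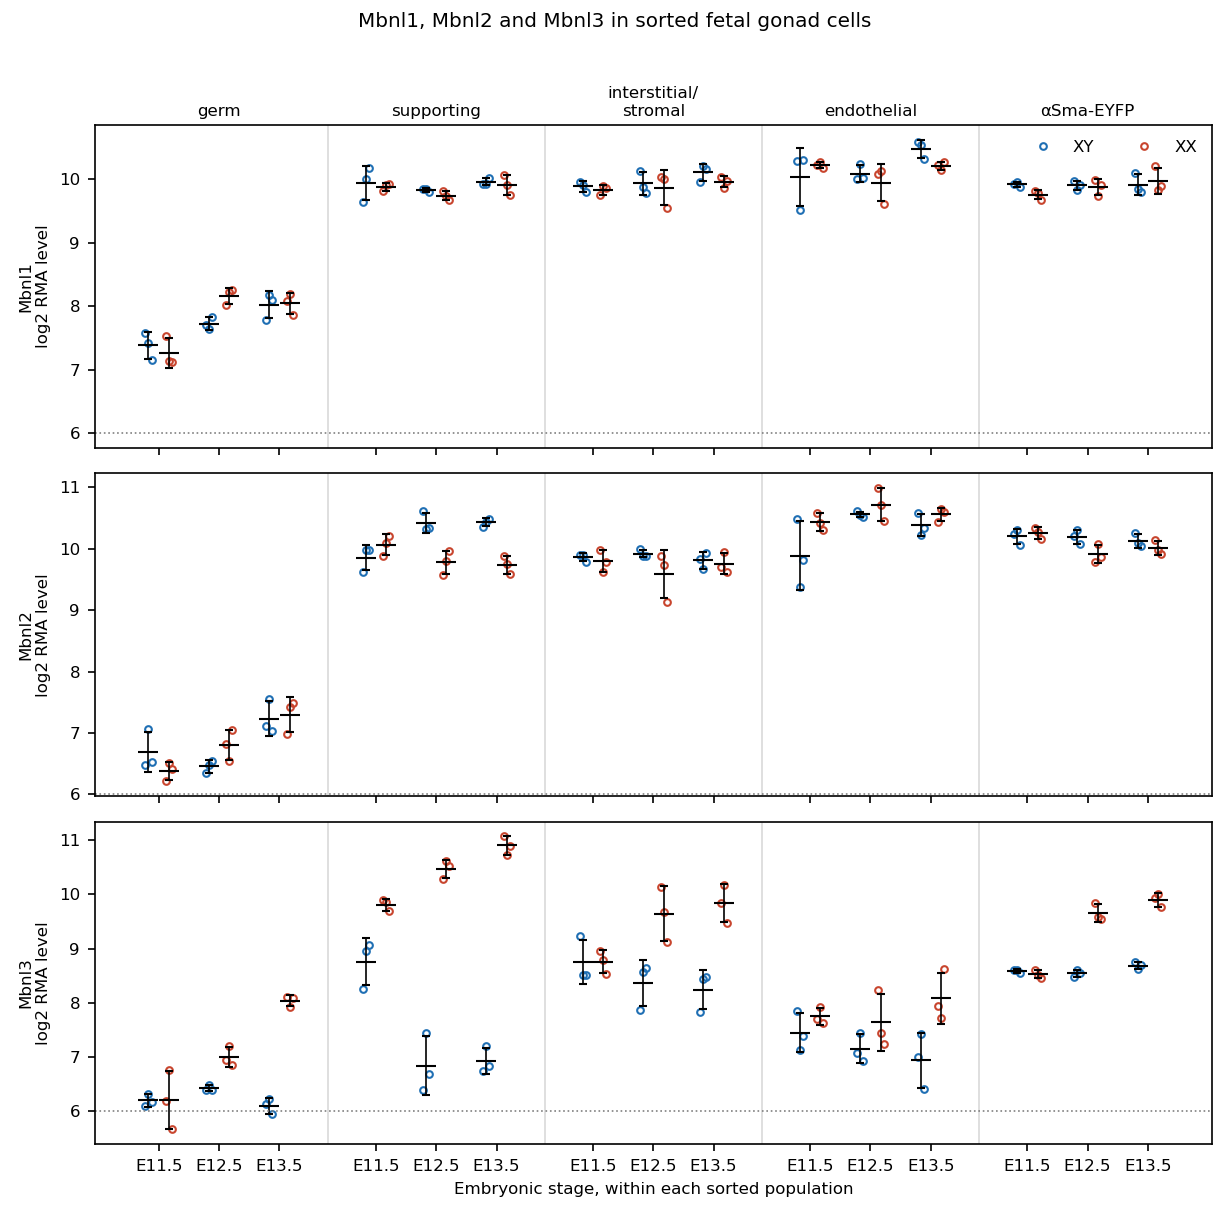
Log2 levels of Mbnl1, Mbnl2 and Mbnl3 by stage in the 5 sorted populations, with XY in blue and XX in red, a circle for each array, black bars for the mean and SD of 3 arrays and a dotted line at 6. Germ cells hold the lowest Mbnl1 and Mbnl2 levels, and the Mbnl3 panel shows XY supporting cells at 6.84 and XX supporting cells at 10.47 at E12.5.

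In αSma-EYFP cells Mbnl3 also differed between the sexes at the later stages. The sexes lay at 8.58 ± 0.03 in XY and 8.52 ± 0.07 in XX cells at E11.5, 8.54 ± 0.06 in XY and 9.66 ± 0.16 in XX cells at E12.5, and 8.69 ± 0.07 in XY and 9.90 ± 0.12 in XX cells at E13.5. The difference was -1.11 at E12.5 (adjusted p = 0.0014, 5.15% of all tested clusters called) and -1.21 at E13.5 (adjusted p = 3.45e-04, 5.73% called), and it was 0.06 at E11.5 (0.249% called). The 10 Sertoli cell markers averaged 8.28 in XY and 6.70 in XX cells of this kind at E12.5, and 7.54 in XY and 6.70 in XX cells at E13.5, and their part in these values was not tested. Over the 15 comparisons that involved αSma-EYFP cells, 5 of 135 member values were called (3.70%, beside 4.28% of all tested clusters), of which 4 were Mbnl3, including its rise in XX cells after E11.5 (1.13 at E12.5, 2.23% called), and 1 was the rise of Celf2 in XX cells between E11.5 and E13.5 (0.85, adjusted p = 1.45e-04, 6.3% called).

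The genes whose group means were most like those of Mbnl3 were Tcf12 (r = 0.943 over 24 group means), Colec12 (0.942) and Phf14 (0.942).

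Celf2 increased with stage in several lineages. In XX supporting cells the arrays read 7.70, 7.60 and 7.56 at E11.5, 8.34, 8.70 and 8.37 at E12.5, and 8.87, 8.62 and 9.06 at E13.5, and in XY supporting cells 7.78, 8.07 and 7.88 at E11.5, 7.87, 8.00 and 7.94 at E12.5, and 8.79, 8.63 and 8.65 at E13.5. XX cells had thus risen by E12.5, and XY cells only after it, though the XY step from E11.5 to E12.5 was also a change of reporter. The difference between the sexes at E12.5 was -0.53 ± 0.16 (adjusted p = 0.00916, lost without the second XX array), while at E13.5 it was -0.16 (95% interval -0.49 to 0.17). Interstitial/stromal cells rose between E11.5 and E13.5 by 1.06 in XY (adjusted p = 2.16e-06) and 0.89 in XX (adjusted p = 1.25e-04).

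In germ cells Celf2 read 6.83, 6.97 and 6.75 in XY cells and 7.40, 7.76 and 7.84 in XX cells at E13.5, after 6.49, 6.42 and 6.48 in XY and 6.59, 6.35 and 6.36 in XX cells at E11.5. The XX rise was 2.35-fold (1.23 ± 0.16, adjusted p = 2.21e-08). The XY rise of 0.38 did not pass (adjusted p = 0.104). At E13.5 XY cells were 1.76-fold lower than XX cells (adjusted p = 9.71e-05), and the divergence over the stages was -0.85 ± 0.23 (adjusted p = 0.0106). The second Celf2 cluster was dim, with a mean of 4.66 over the sorted-cell arrays, and was not used. The genes most like Celf2 over the groups were Zfp61 (r = 0.916), Nexmif (0.897) and Slc6a9 (0.891), and those most like Ptbp1 were Drg2 (0.887), Tpm3 (0.875) and Serp1 (0.870).

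Rbfox2 showed no called difference between the sexes. Its group means ran from 8.08 in XY supporting cells at E13.5 to 9.16 in XY αSma-EYFP cells at E13.5. Supporting cells lay below the mean of the other lineages, at 8.08 ± 0.09 in XY and 8.24 ± 0.12 in XX cells at E13.5, with differences from it of -0.72 in XY cells (adjusted p = 1.34e-07, 36.8% of all tested clusters called) and -0.45 in XX cells (adjusted p = 5.84e-04, 34.6% called). They were below each other lineage by the test in 1 of 6 combinations, XY cells at E13.5, and in XX cells at E13.5 the difference from germ cells was -0.22 (adjusted p = 0.172). The calls of a rise in XY endothelial cells after E11.5 (0.43 at E12.5, adjusted p = 0.0267, 8.89% of all tested clusters called) rest on E11.5 arrays of 8.92, 7.98 and 8.35, among them the replicate that lay farthest from its group of all arrays, and with weights for array quality the adjusted p was 0.151.

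**Figure D4:**
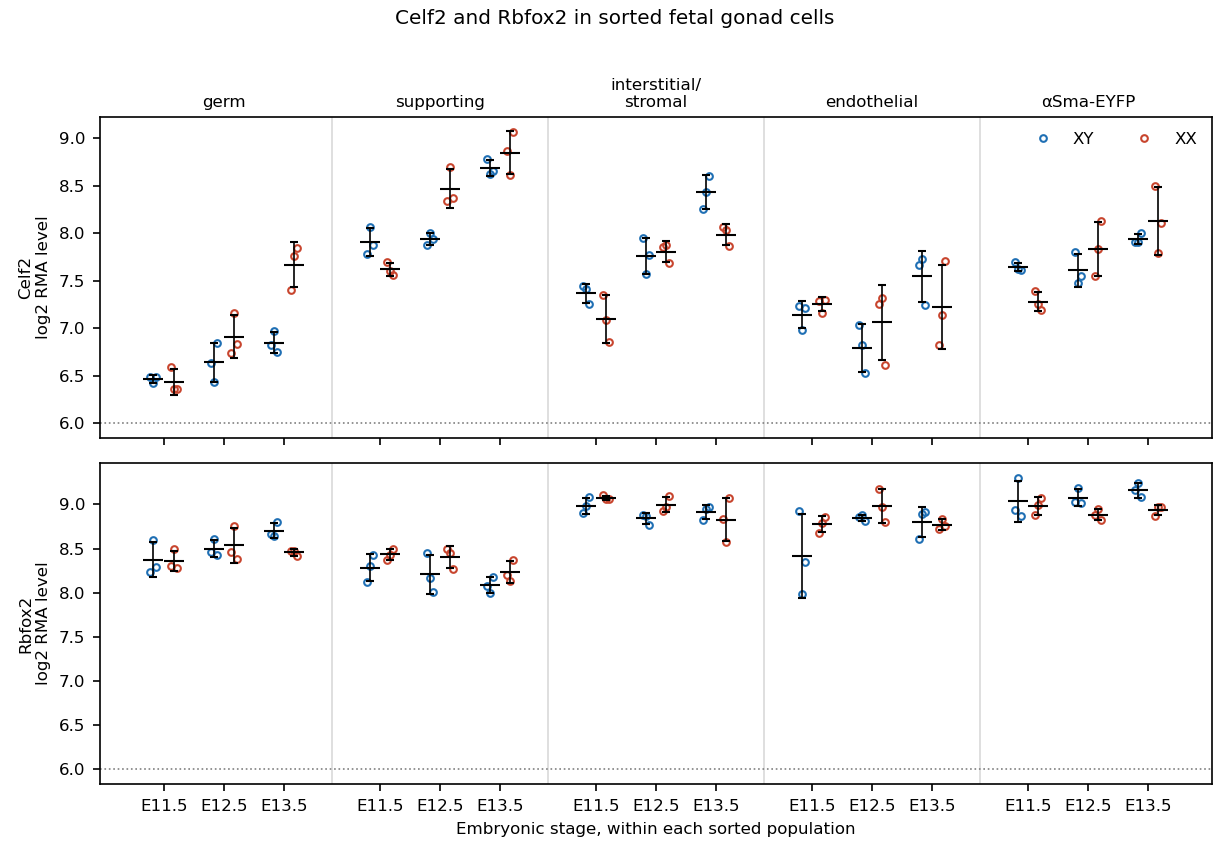
Log2 levels of Celf2 and Rbfox2 by stage in the 5 sorted populations, with XY in blue and XX in red, circles for arrays, black bars for the mean and SD of 3 arrays and a dotted line at 6. Celf2 rises over the stages in supporting and interstitial/stromal cells and in XX germ cells, where it reaches 7.67 at E13.5 against 6.85 in XY germ cells, and the group means of Rbfox2 stay between 8.08 and 9.16.

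Counted over the 9 genes, the calls between the sexes lay mostly in supporting and germ cells, as did the calls over all tested clusters. In supporting cells, 1 gene was called at E11.5 (9.59% of all tested clusters were called), 6 at E12.5 (30.7%) and 4 at E13.5 (29.4%). In germ cells the counts were 0 at E11.5 (0.202%), 1 at E12.5 (4.48%) and 4 at E13.5 (21.1%). Interstitial/stromal cells had 0 at E11.5 (0.238%), 1 at E12.5 (5.92%) and 1 at E13.5 (8.67%), in both cases Mbnl3. Endothelial cells had 0 at E11.5 (0.981%), 0 at E12.5 (3.55%) and 1 at E13.5 (5.31%), which was Mbnl3 too. Together 19 of 108 values were called, or 17.6%, beside 10.0% over all tested clusters.

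**Figure D5:**
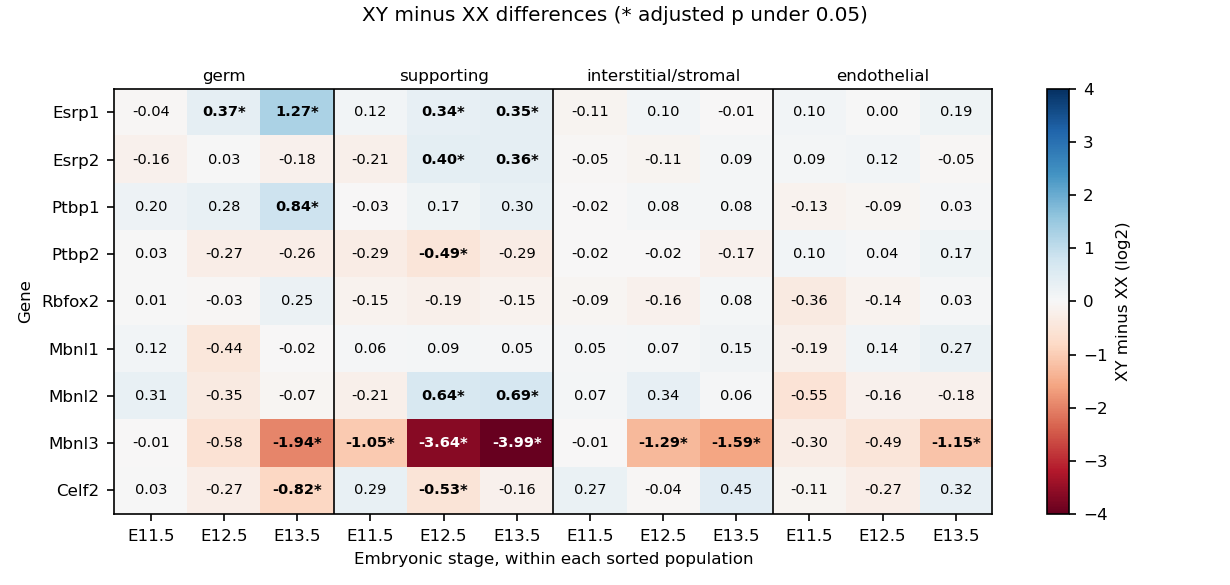
XY minus XX differences (log2) of the 9 genes (rows) in the 4 lineages by stage (columns), with blue for higher in XY, red for lower in XY and an asterisk for an adjusted p under 0.05. The Mbnl3 row holds the largest values, -3.64 at E12.5 and -3.99 at E13.5 in supporting cells, and the germ cell column of E13.5 holds asterisks for Esrp1, Ptbp1, Mbnl3 and Celf2.

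Changes between E11.5 and E13.5 were most frequent in XX germ cells, where the share over all tested clusters was also the highest for this step. Between E11.5 and E13.5, 7 of the 9 genes changed there (25.4% of all tested clusters), with Esrp1 and Ptbp1 lower and Ptbp2, Mbnl1, Mbnl2, Mbnl3 and Celf2 higher. In XY germ cells 4 changed (16.6%): Ptbp1 was lower and Ptbp2, Mbnl1 and Mbnl2 were higher at E13.5. Elsewhere the same step gave 4 calls in XY supporting cells (24.2%), 2 in XX supporting cells (12%), 1 in XY interstitial/stromal cells (7.39%), 2 in XX interstitial/stromal cells (6.45%), 2 in XY endothelial cells (13.3%) and 0 in XX endothelial cells (3.69%). The divergence of the sexes over the stages was called for 3 genes in supporting cells (13.4%), 1 in interstitial/stromal cells (3.19%), 4 in germ cells (9.11%) and 0 in endothelial cells (2.6%).

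Differences between lineages were the rule, with 159 of 216 comparisons of a lineage with the mean of the others called for the 9 genes (73.6%, beside 39.7% over all tested clusters). These calls are not separate results, since each sets a lineage against a mean that holds the others. The germ cell levels of Esrp1, Mbnl1 and Mbnl2 thus enter the values of the somatic lineages. Germ cells against the others gave 5 called genes in XY cells at E11.5 (52.4%), 5 at E12.5 (51.9%) and 7 at E13.5 (52.2%), and 7 in XX cells at E11.5 (50.8%), 8 at E12.5 (53.3%) and 8 at E13.5 (52.9%). Sex differences that departed from the mean of the other lineages numbered 3 in supporting cells at E12.5 (22.2%) and 3 at E13.5 (23.1%), 3 in germ cells at E12.5 (10.7%) and 3 at E13.5 (23.7%), 2 in interstitial/stromal cells at E13.5 (5.61%), and 1 each in endothelial cells at E12.5 (6.86%) and E13.5 (9.68%).

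Other splicing regulators were read from a list of 40 genes, of which 38 were measured and 35 tested. In germ cells at E13.5, 3 were higher in XY than in XX cells, namely Elavl2 (0.63), Rbm38 (0.61) and Srsf6 (0.30), and 3 were lower, namely Nova1 (-0.65), Khdrbs3 (-0.59) and Hnrnpll (-0.32). In that comparison 21.1% of all tested clusters were called. The median difference over the tested list was -0.01, beside 0.02 over all tested clusters. Elavl2, an RNA-binding protein of the ELAV family, was also a germ cell transcript, 11.4-fold higher in XY germ cells than in the other lineages at E11.5 (adjusted p = 5.32e-33).

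In supporting cells, 5 of the list were higher and 4 lower in XY than in XX cells at E12.5, where 30.7% of all tested clusters were called, and 6 were higher and 8 lower at E13.5, where 29.4% were called. Rbfox1, a relative of Rbfox2 known from neurons and muscle, was lower in XY than in XX supporting cells, with differences of -1.03 at E12.5 (adjusted p = 2.32e-10) and -1.01 at E13.5 (adjusted p = 4.10e-10), with means of 6.12 ± 0.07 in XY and 7.15 ± 0.14 in XX cells at E12.5. It was lower in XY interstitial/stromal cells too (-0.73 and -0.71). Qk (quaking), whose product binds introns beside regulated exons, was higher in XY supporting cells, by 0.40 at E12.5 and 0.60 at E13.5.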

How the data were processed

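RNA of sorted cells was amplified and hybridised to Affymetrix Mouse Gene 1.0 ST arrays. The deposited table holds log2 RMA values that the authors computed in Partek after GCOS scanning, for 35557 transcript clusters on 91 arrays. By the methods the authors processed all 91 arrays together for the αSma-EYFP analysis and the 72 arrays of the 4 lineages together for the rest, and which processing the deposited values come from was not settled. Intensities carry no read depth, so precision is limited by 3 arrays in each group. The newborn array entered no comparison. The reporter of the interstitial/stromal cells is not reported here. Of 23410 annotated clusters, 21789 name 1 gene. A cluster was tested if 2 or more of the 3 arrays of any group exceeded a log2 level of 6, which left 16820 clusters of 15324 genes.

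All contrasts came from a single linear model in limma 3.58.1 (R 4.3.3; lmFit, then eBayes), in which each group of the 72 arrays had its own mean, leaving 48 residual degrees of freedom. αSma-EYFP cells were tested in the same way over 90 arrays. P-values were adjusted by Benjamini-Hochberg over all tested clusters within each comparison, and a call is an adjusted p under 0.05. They measure the spread between pools of one or more litters. The code was tested on simulated data. Named genes were the 9 members, the 3 genes closest to each of 4 of them by correlation, and called genes of the lists. The members and lists were chosen with earlier results of these data known. Gene names were updated through RefSeq (GRCm38.p6), and no coordinates of the array were used. Alternatives were no filter, a limit of 7, a second quantile normalization, 90 arrays, array weights, the other cluster of Ptbp1 and Celf2, the replicate number as a block, and leaving out each array.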

Additional observations from a re-analysis of the deposited data

Results flagged for a closer look

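Of the 9 genes, 8 differences between the sexes changed between E11.5 and E13.5 by the test of that change (XY change minus XX change, log2). In supporting cells these were Esrp2 (0.58), Mbnl2 (0.90) and Mbnl3 (-2.94), and in interstitial/stromal cells Mbnl3 (-1.59). In germ cells they were Esrp1 (1.31), Ptbp1 (0.64), Mbnl3 (-1.93) and Celf2 (-0.85).

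In 16 cases the sex difference of a lineage differed from the mean sex difference of the other lineages at the same stage. Supporting cells stood apart at E12.5 for Esrp2 (0.39), Mbnl2 (0.70) and Mbnl3 (-2.85), and at E13.5 for Esrp2 (0.41), Mbnl2 (0.75) and Mbnl3 (-2.43). Germ cells stood apart at E12.5 for Mbnl1 (-0.54), Mbnl2 (-0.62) and Mbnl3 (1.23), and at E13.5 for Esrp1 (1.10), Ptbp1 (0.70) and Celf2 (-1.02). In germ cells at E12.5 the only gene called between the sexes was Esrp1. Without the filter the E12.5 value of Mbnl2 was not called (adjusted p = 0.0511 in limma). Endothelial cells stood apart for Mbnl3 at E12.5 (1.35) and E13.5 (1.35), and interstitial/stromal cells at E13.5 for Esrp1 (-0.62) and Celf2 (0.66). Each of these values sets a lineage against a mean that holds the others. The large difference of Mbnl3 in supporting cells thus enters its values for germ and endothelial cells. That of Mbnl2 in supporting cells enters its value for germ cells, and that of Esrp1 and Celf2 in germ cells enters their values for interstitial/stromal cells.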

How the results depend on the processing

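Across the alternatives that kept the cluster of each gene, no called value that was checked changed sign. The second clusters of Ptbp1 and Celf2 entered this check by their mean level only. The check covered 248 called values and left out those between pairs of lineages, which were followed only as a count. Of the 248 values, 187 stayed called under each of these alternatives and each omission of an array. Under each alternative other than an omission 235 stayed called, and 188 under each of the omissions that touched them. Counts of calls between the sexes were 19 (19 to 24 under alternatives, 18 to 21 with an array left out), between stages 41 (41 to 51 and 39 to 44), between a lineage and the others 159 (158 to 168 and 155 to 163), between pairs of lineages 203 (201 to 214 and 198 to 208), for sex by stage 8 (8 under the alternatives and 7 to 9), and for the sex difference of a lineage against the others 16 (15 to 22 and 13 to 20). The alternatives for pairs of lineages were chosen after seeing the data. For αSma-EYFP cells the count of 5 became 11 with array weights, and 5 to 7 with an array left out. The cause was not tested.

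The labels give each group replicates 1 to 3, but they do not say that a number links arrays. Deviations of arrays with the same number correlated between -0.31 and 0.23 over 36 pairs (median 0.04), and the number was not taken as pairing. In germ cells the correlations were all positive, from 0.01 to 0.23, and at E12.5 they ran from 0.13 to 0.21. With it as a replicate block the calls were 19 between the sexes, 41 between stages, 161 for a lineage against the others, 204 for pairs of lineages, 8 for sex by stage, 17 for the sex difference of a lineage against the others and 5 for αSma-EYFP cells. The block gave each number the same shift in all groups, so a link of arrays within a lineage and stage was not tested. No array carries a read depth, so the precision rests on the 3 arrays of a group.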

Other observations

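A single array of a whole newborn mouse, which belongs to no comparison, read 7.86 for Esrp1, 7.02 for Esrp2, 9.56 for Ptbp1, 8.85 for Ptbp2, 9.05 for Rbfox2, 10.07 for Mbnl1, 9.74 for Mbnl2, 7.07 for Mbnl3 and 9.53 for Celf2 on the log2 scale. It has no replicate.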
